A study of Homo sapiens with 4 samples.

Results

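The genes described here are NFE2L2, which encodes the transcription factor NRF2, its inhibitor KEAP1, and 8 genes of antioxidant enzymes and related proteins, NQO1, GCLC, GCLM, TXNRD1, TXN, SRXN1, OSGIN1 and PRDX1. They were chosen by name, with earlier results of these data known. All 10 were found among the 57500 genes counted in each library and passed the filter on low counts. RNA was sequenced from SUM159 cells, a triple-negative breast cancer cell line used as a model of metaplastic breast cancer (MpBC). There was 1 parental library, labelled as the control, and 3 NOS2KO libraries, 1 from each of the clones numbered 1, 5 and 6. The NOS2KO cells had received a double nickase plasmid against NOS2, the gene of the inducible nitric oxide synthase iNOS, and each clone was chosen after puromycin by its iNOS protein and its nitrite and nitrate. Each knockout library is therefore 1 clone. The labels describe no plasmid or puromycin control for the parental cells, so clonal selection and loss of iNOS cannot be told apart. The comparison asks how the RNA of these genes in NOS2KO cells stood against that of the parental cells.

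The libraries held between 90467395 and 122171287 counts on genes. NOS2 was near 0 in all of them, with at most 3 counts in the parental library and in clones 1 and 6, and with 18 counts in the library labelled clone 5, so its RNA does not check the labels. Values are CPM, counts scaled to the size of the library after TMM normalization, and clone values are always given in the order of clone 1, of the library labelled clone 5 and of clone 6. At these depths, 3 counts correspond to 0.0262 to 0.0332 CPM. All 7 markers of a mesenchymal or basal breast line were measured, and their summed level was 5337 CPM in the parental library and between 9962 and 12227 CPM in the clones. ZEB1 went the other way from the other 6, at 83.7 CPM in the parental library and between 39.5 and 57.8 CPM in the clones. The luminal markers PGR and TFF1 were at or near 0, with a sum over the luminal list of 312.7 CPM in the parental library and 174.3 to 221.3 CPM in the clones. The 6 leukocyte markers summed to 17.5 CPM in the parental library and to 53.1 to 110.2 CPM in the clones. Of these, PTPRC was at 4.45 CPM in the parental library and 41.7 to 105.4 CPM in the clones and CD14 at 12.8 CPM and 2.29 to 11.3 CPM, while CD3E was at most at 0.0750 CPM. The 5 endothelial markers summed to at most 16.7 CPM in any library. These marker differences go with the same contrast as every result below, and their part in the results was not tested.

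NRF2 is a transcription factor that binds a DNA motif called the antioxidant response element together with a small MAF protein. In unstressed cells KEAP1 presents NRF2 to a CUL3 and RBX1 ubiquitin ligase for degradation, and oxidants or electrophiles that modify KEAP1 let NRF2 accumulate. NRF2 activity is therefore set largely at the protein level, which these RNA counts do not measure. Its classical target genes make glutathione, reduce thioredoxin and detoxify quinones.

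The 3 NOS2KO clones had lower values of both subunits of the glutathione-making ligase, GCLC and GCLM, of the sulfiredoxin SRXN1 and of OSGIN1 than the parental cells, with fitted decreases between 1.38 and 1.96 on the log2 scale. TXNRD1 and NFE2L2 were also below the parental value in each clone, by smaller amounts. KEAP1, TXN and PRDX1 were above the parental value in each clone, and NQO1, a textbook NRF2 target, lay on both sides of it. With edgeR no gene of the 10 reached an adjusted p of 0.05, as only 0.00444% of the 22511 genes tested did, a single gene, and 4 of the 10 were lower at an unadjusted p under 0.05, against 6.83% of all genes. In bulk RNA, fewer cells that express a gene and less RNA per cell cannot be told apart.

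**Figure D1:**
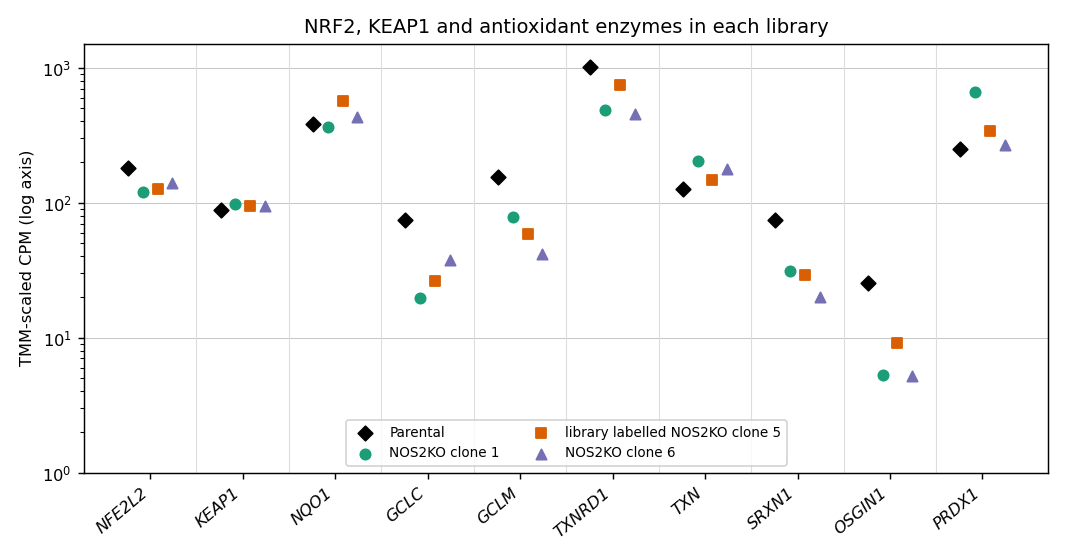
TMM-scaled CPM on a log axis of each of the 10 genes in the 4 libraries, 1 point per library, with black diamonds for the parental cells and coloured symbols for the 3 NOS2KO clones. The parental diamond lies above all clones for NFE2L2, GCLC, GCLM, TXNRD1, SRXN1 and OSGIN1, and for OSGIN1 it is at 25.2 CPM against 5.16 to 9.04 CPM in the clones.

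The regulators were measured at similar levels in every clone. NFE2L2 (ENSG00000116044, chromosome 2 from 177227595 to 177392697 on the minus strand of GRCh38) was at 181.5 CPM in the parental library and at 119.4, 126.2 and 140.1 CPM in the clones. The parental value stood above the clones, which averaged 128.6 ± 10.5 CPM (SD, n = 3). The fitted log2 fold change was -0.50 with a standard error of 0.28 (edgeR adjusted p = 0.535). KEAP1 (ENSG00000079999, chromosome 19 from 10486120 to 10503741, minus strand) was at 88.8 CPM in the parental library and at 97.4, 94.7 and 94.96 CPM in the clones. The clones lay within 1.03-fold of each other, the tightest range of the 10 genes, and above the parental value by only 0.09 to 0.13 on the log2 scale. The fitted difference of 0.11 with a standard error of 0.26 did not pass the test (edgeR adjusted p = 0.892). Of the exon bases of NFE2L2, 20.9% are shared with other annotated genes, mostly with AC019080.1 on the same strand, whereas no annotated gene shares exon bases with KEAP1.

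Promoter sequence is shown for genes whose window holds a match to the core of the antioxidant response element, TGACNNNGC, on either strand, or to the AP-1 motif TGACTCA, since AP-1 and NRF2 sites are related in sequence. RefSeq promoters on GRCh38.p14 were available for 9 of the 10 genes, in 12 windows of the 250 bases before a start, and PRDX1 was not among them. The response element core was found in 4 windows of 3 genes, KEAP1, GCLM and TXNRD1. Bases outside these windows were not searched, so a gene without a match here, such as NQO1 or GCLC, may hold one elsewhere. Of all 35116 promoters of that length, 3830 (10.9%) held it, and 4.20% held the AP-1 motif, which among the 10 genes was found only for OSGIN1. The motifs share their opening letters, and no window of these genes held both. A match is a description of the letters and not of binding. One start of KEAP1 had a pair of matches, both inside the last 125 bases of its window, which lie in an annotated exon of KEAP1. They are shown with 10 bases on each side, read 5′ to 3′ on the gene's strand, with the match in capitals. Their places are chr19:10502807-10502835 and chr19:10502784-10502812 (minus strand).
KEAP1 upstream match: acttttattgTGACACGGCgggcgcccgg
KEAP1 downstream match: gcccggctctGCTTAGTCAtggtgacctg

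Glutamate-cysteine ligase, which catalyses the rate-limiting step of glutathione synthesis, is built of the catalytic subunit GCLC and the modifier subunit GCLM. GCLC (ENSG00000001084, chromosome 6 from 53497341 to 53616970, minus strand) was at 74.3 CPM in the parental library and at 19.7, 26.1 and 37.4 CPM in the clones. The parental value was above all clones, with a mean of 27.7 ± 8.95 CPM (SD, n = 3). The fitted log2 fold change was -1.42 with a standard error of 0.43 (edgeR adjusted p = 0.353). GCLM (ENSG00000023909, chromosome 1 from 93885205 to 93909456, minus strand) was at 155.0 CPM in the parental library and at 78.4, 59.1 and 41.5 CPM in the clones. These too did not reach the parental value and averaged 59.6 ± 18.5 CPM (SD, n = 3). The fit gave -1.38 with a standard error of 0.42 (edgeR adjusted p = 0.354). The subunits were ordered oppositely among the clones. From clone 1 to clone 6, GCLC was higher by 0.92 on the log2 scale (exact Clopper-Pearson 95% interval 0.85 to 1.00), and GCLM differed by -0.92 (-0.97 to -0.87). These intervals come from the counts and cover counting error only, and with 1 library a clone the differences between clones have no replicate check. The GCLM window has its match in the last bases printed, where the sequence ends at the annotated exon (chr1:93909456-93909680, minus strand, capitals mark the match).
GCLM promoter: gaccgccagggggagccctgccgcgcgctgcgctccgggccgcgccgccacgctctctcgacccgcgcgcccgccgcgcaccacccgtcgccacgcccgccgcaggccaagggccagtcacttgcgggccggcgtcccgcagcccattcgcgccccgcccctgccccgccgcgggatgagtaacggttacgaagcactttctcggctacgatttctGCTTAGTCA

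The thioredoxin genes did not share a direction. TXNRD1, the cytosolic selenoenzyme that reduces thioredoxin with NADPH (ENSG00000198431, chromosome 12 from 104215779 to 104350305, plus strand), was at 1010 CPM in the parental library and at 487.5, 750.1 and 455.6 CPM in the clones. All clones were below the parental value, the library labelled clone 5 least so, at -0.43 on the log2 scale (95% interval -0.44 to -0.42) against -1.05 and -1.15 in the other two. The fitted log2 fold change was -0.84 with a standard error of 0.42 (edgeR adjusted p = 0.498). TXN, thioredoxin itself (ENSG00000136810, chromosome 9 from 110243811 to 110256640, minus strand), was at 125.6 CPM in the parental library and at 204.8, 146.5 and 176.2 CPM in the clones, each above it. The fitted difference was 0.48 with a standard error of 0.32 (edgeR adjusted p = 0.603). The TXNRD1 window is shown in full for the first start (chr12:104215529-104215778, plus strand). For the second start only the bases around the match are shown (chr12:104286920-104286948, plus strand). The window of the second start lies in annotated exons of TXNRD1 over all 250 bases. The response element core is in capitals.
TXNRD1 start 1: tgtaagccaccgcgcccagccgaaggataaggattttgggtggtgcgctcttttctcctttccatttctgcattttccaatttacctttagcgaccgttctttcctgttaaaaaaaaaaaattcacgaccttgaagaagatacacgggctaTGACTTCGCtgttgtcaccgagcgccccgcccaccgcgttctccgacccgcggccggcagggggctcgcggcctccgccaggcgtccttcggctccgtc
TXNRD1 start 2: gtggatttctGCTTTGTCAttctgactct

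PRDX1, a peroxiredoxin that removes hydrogen peroxide and is recycled by thioredoxin (ENSG00000117450, chromosome 1 from 45511036 to 45523047, minus strand), was at 248.2 CPM in the parental library and at 662.8, 338.4 and 265.9 CPM in the clones. Clone 1 stood far above the other two, and the clones spanned 2.49-fold, the widest range of the 10 genes. The fitted log2 fold change was 0.77 with a standard error of 0.60 (edgeR adjusted p = 0.664), and 0.29 without clone 1. Of its exon bases, 24.9% are shared with MMACHC on the opposite strand, and the strand setting of the counting was not given in the sources used here. SRXN1, sulfiredoxin, which restores peroxiredoxins that have been overoxidised (ENSG00000271303, chromosome 20 from 646615 to 653370, minus strand), was lower in the clones. It was at 74.9 CPM in the parental library and at 31.1, 29.2 and 20.1 CPM in the clones, so that the groups did not overlap. The fitted log2 fold change was -1.48 with a standard error of 0.36 (edgeR adjusted p = 0.327). SRXN1 shares 85.0% of its exon bases with AL121758.1 on the same strand, a gene with 6 to 14 counts in each library, so its level is uncertain to the extent that shared reads were left out.

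OSGIN1, an oxidative stress-induced growth inhibitor (ENSG00000140961, chromosome 16 from 83948282 to 83966332, plus strand), had the lowest fitted log2 fold change of the 10 genes. It was at 25.2 CPM in the parental library and at 5.28, 9.04 and 5.16 CPM in the clones. The parental library was 3.88-fold above the mean of the clones, 6.49 ± 2.21 CPM (SD, n = 3). The fitted log2 fold change was -1.96 with a standard error of 0.49 (edgeR adjusted p = 0.332). Clones 1 and 6 differed by less than the counting error, with a log2 ratio of -0.03 (95% interval -0.20 to 0.14), and the library labelled clone 5 was above clone 1 by 0.78 (0.63 to 0.93). The OSGIN1 promoter held the AP-1 motif, in capitals, and is shown up to the annotated exon (chr16:83952990-83953221, plus strand).
OSGIN1 promoter: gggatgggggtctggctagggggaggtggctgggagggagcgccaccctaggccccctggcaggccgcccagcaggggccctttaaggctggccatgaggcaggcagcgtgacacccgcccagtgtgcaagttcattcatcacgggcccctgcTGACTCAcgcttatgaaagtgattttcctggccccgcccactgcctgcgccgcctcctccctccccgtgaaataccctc

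NQO1, the quinone reductase that uses NADH or NADPH (ENSG00000181019, chromosome 16 from 69706996 to 69726951, minus strand), was at 380.5 CPM in the parental library and at 362.6, 571.0 and 428.2 CPM in the clones. It was the only gene of the 10 with the parental value inside the range of the clones. The fitted difference was 0.25 with a standard error of 0.38 (edgeR adjusted p = 0.817).

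**Figure D2:**
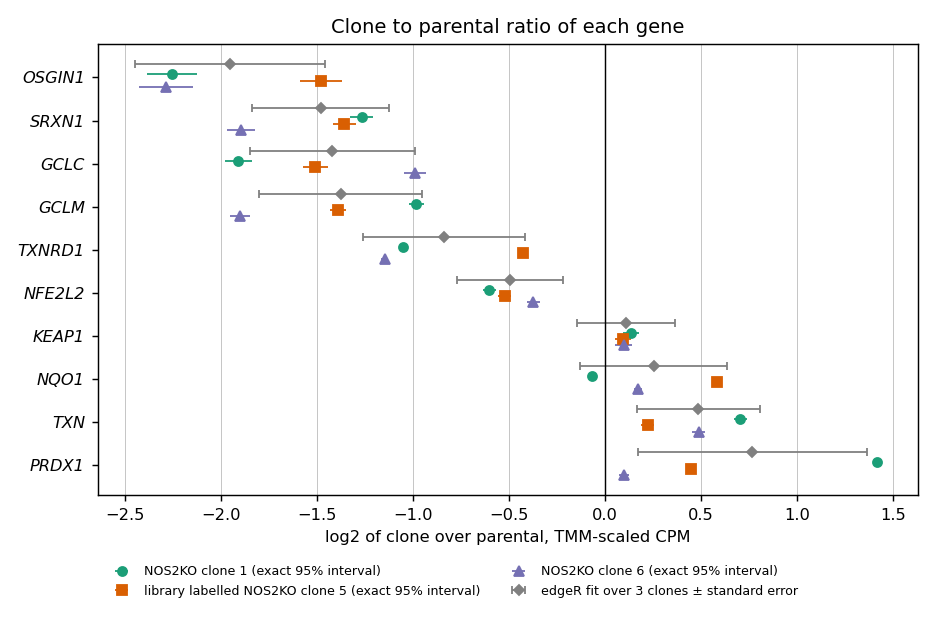
Log2 ratio of each NOS2KO clone to the parental library for each of the 10 genes, as coloured points with exact 95% intervals from the counts, and above them in gray the edgeR estimate over the 3 clones with its standard error. OSGIN1, SRXN1, GCLC and GCLM have ratios of -0.98 or lower in every clone, while PRDX1 runs from 0.10 in clone 6 to 1.42 in clone 1.

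At an unadjusted p under 0.05, 4 of the 10 were lower in the clones and 0 were higher, against 6.83% and 4.67% of all genes tested. The same 4 genes, GCLC, GCLM, SRXN1 and OSGIN1, met a criterion with the thresholds that the study set for this experiment, a p under 0.05 with a log2 fold change above 1 or below -1, in the lower direction and 0 in the higher, against 5.34% and 4.24% of all genes. The study names a Wald test, whereas the p used here is edgeR's, unadjusted. With the p of DESeq2's Wald test, 4 of the 10 genes were lower and 0 higher, and of all genes 1144 were lower and 1591 higher, against 1202 and 955 with edgeR. GCLC, GCLM, SRXN1 and OSGIN1 still met it with edgeR in each fit that left out a clone, the fit without the library labelled clone 5 included. The parental value was above all clones for 6 of the 10 genes and below all clones for 3, where 30.5% and 28.6% of all genes tested did so. With 1 library on one side and 3 on the other, the smallest p of an exact permutation is 0.25, so that test was not used and the tests of single genes are those of the models. With DESeq2's Wald test, OSGIN1 (adjusted p = 0.0167) and SRXN1 (adjusted p = 0.0406) were lower and 0 genes were higher, against 2.4% and 2.47% of all genes. The median log2 fold change of the 10 genes was -0.67, and that of all genes tested was 0.10. All p-values rest on the spread among the clones, since the parental cells have no replicate.

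Levels of different genes were compared as CPM per kilobase of exon. In the parental library PRDX1 was at 163.1 CPM per kilobase, TXNRD1 at 150.6, NQO1 at 116.9 and TXN at 110.0. These 4 stood well above the rest, which ran from NFE2L2 at 30.3 through GCLM at 28.6, SRXN1 at 27.7 and KEAP1 at 23.6 to GCLC at 8.78 and OSGIN1 at 7.28. In each clone PRDX1 again had the highest level and OSGIN1 the lowest, but TXNRD1 was below TXN and NQO1 and KEAP1 was above NFE2L2. Over the clones, the means and SDs (n = 3) were 277.5 ± 138.9 CPM per kilobase for PRDX1, 154.0 ± 25.5 for TXN, 139.5 ± 32.7 for NQO1 and 84.1 ± 24.1 for TXNRD1, and the ranges of neighbours in this order overlapped. KEAP1 at 25.4 ± 0.387 and NFE2L2 at 21.5 ± 1.76 did not overlap, with KEAP1 the higher in every clone. On the exon bases of NFE2L2 that no other gene shares, its clone mean would be 27.2 CPM per kilobase, above that of KEAP1. The order of NFE2L2 and KEAP1 in the clones therefore depends on how shared reads were treated. GCLM, from 7.65 to 14.5, overlapped with SRXN1, from 7.45 to 11.5, and GCLC at 3.28 ± 1.06 with OSGIN1 at 1.88 ± 0.638. Counted on the exon bases of SRXN1 that no other gene shares, its level would be 184.4 CPM per kilobase in the parental library and 66.0 in the clones, so its place in the order depends on how shared reads were treated.

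**Figure D3:**
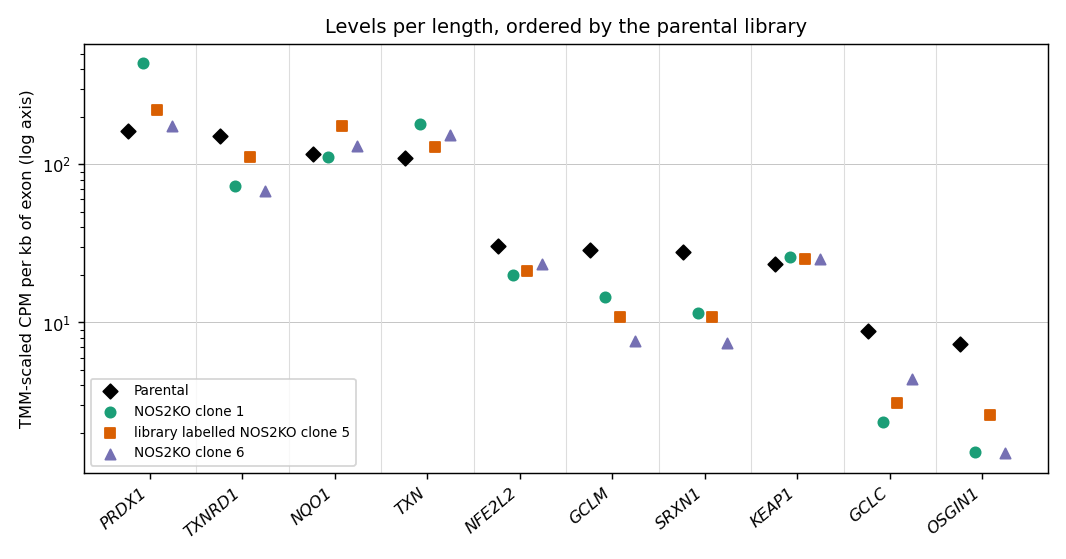
TMM-scaled CPM per kilobase of exon on a log axis, with genes ordered by the parental library and 1 point per library. PRDX1, TXNRD1, NQO1 and TXN lie at 110.0 or more in the parental library, and KEAP1 at 23.6 is below NFE2L2 at 30.3 there but above it in each clone. Levels are on all exon bases, and the order of NFE2L2 and KEAP1 in the clones depends on how shared reads were treated.

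The profile over the 4 libraries was compared with that of 10557 other genes by the distance between log2 CPM values centred on their mean, for the pair of genes with the widest range. Nearest to OSGIN1 were CCDC113 (distance 0.162), FICD (0.196) and GTPBP2 (0.248). Nearest to GCLC were NSMAF (0.0795), NAT8L (0.186) and APOL6 (0.194). Among the 10 genes the closest pair was GCLM and SRXN1, at 0.260. With 4 libraries these distances describe the libraries only.

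Other genes of the pathway were taken from 9 lists with 142 genes tested. By the criterion, 20 of them were lower in the clones and 15 higher (14.1% and 10.6%, against 5.34% and 4.24% of all genes). None had an adjusted p under 0.05 by edgeR, where 0.00444% of all genes did. By DESeq2, 12 were lower and 9 higher at an adjusted p under 0.05, where 2.4% and 2.47% of all genes were. The median log2 fold change of the 142 genes was 0.16. Without clone 1 the criterion gave 20 lower and 20 higher. Without the library labelled clone 5 the counts were 18 and 10, and without clone 6 they were 14 and 6. Of all genes in these fits, 1608, 996 and 825 were lower (7.34%, 4.63% and 3.72%), and 1791, 688 and 641 were higher. Upper quartile scaling gave 17 lower and 18 higher genes of the lists, and 1002 and 1124 of all genes.

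**Figure D4:**
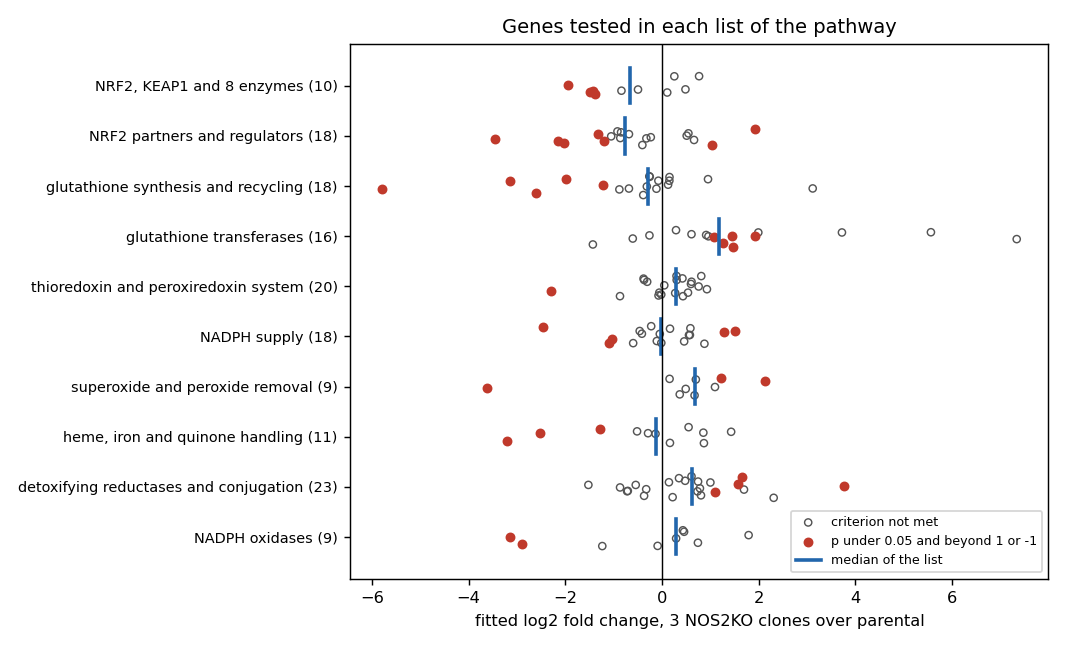
Fitted log2 fold change of the 3 clones over the parental library for each gene tested in the 10 genes described and in the 9 lists of the pathway, with the number of genes in brackets, filled points for genes that met the criterion and a bar at the median of each list. The median is -0.77 for the NRF2 partners and regulators and 1.17 for the glutathione transferases.

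Of the 18 NRF2 partners and regulators, 5 (27.8%) were lower by the criterion and 2 (11.1%) higher (all genes 5.34% and 4.24%). Their median log2 fold change was -0.77. MAFF, a small MAF protein of the kind that pairs with NRF2, was at 120.2 CPM in the parental library and at 16.3, 8.56 and 8.02 CPM in the clones (log2 fold change -3.45). MAFG and MAFK, named after their values were seen, were lower as well, at -1.19 and -1.33. NFE2L1, which encodes the related factor NRF1, was at 900.3 CPM in the parental library and at 206.6, 217.2 and 182.4 CPM in the clones (-2.16). SQSTM1, whose protein p62 can sequester KEAP1, was at 1414 CPM in the parental library and between 275.5 and 387.5 CPM in the clones (-2.03). NFE2, another factor of the family, was higher at 1.93. RBX1, the RING subunit of the ligase that KEAP1 serves, met the criterion at 1.03, but not without clone 1 (0.91) or without clone 6 (1.05). BACH1, a repressor that competes with NRF2 for its element, was at 12.3 CPM in the parental library and between 17.7 and 22.6 CPM in the clones (0.66, edgeR adjusted p = 0.529).

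Of the 18 tested genes of glutathione synthesis and recycling, 5 (27.8%) were lower by the criterion and 0 higher (all genes 5.34% and 4.24%). They include both subunits of the cystine importer that feeds glutathione synthesis. SLC7A11, its transport subunit, was at 347.5 CPM in the parental library and at 55.4, 50.7 and 64.9 CPM in the clones (-2.61). SLC3A2, its heavy chain, was at 1471 CPM against 136.6 to 205.8 CPM (-3.14). CHAC1, which degrades glutathione, had the lowest log2 fold change of the list, at 85.5 CPM in the parental library and 1.18 to 1.87 CPM in the clones (-5.79), so that the list holds genes of synthesis and of breakdown in the same direction. GLRX2 and GPX3, named after their values were seen, were the other two, and without clone 6 the count was 3. GPX4, which reduces lipid hydroperoxides, differed by 0.15 and GPX8 by 0.95, neither past the criterion with all clones. Without clone 1, GPX8 met it (1.01) and the higher count of the list was 2.

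Of the 16 tested glutathione transferases, 0 were lower by the criterion and 5 (31.25%) higher (all genes 5.34% and 4.24%). These enzymes join glutathione to electrophiles. The median of the list, 1.17 on the log2 scale, was the same with GSTA2 at its bound against 3 counts. GSTA2 had no count in the parental library. GSTA1, GSTM1 and GSTM2, named after their values were seen, also lay above the median, at 5.56, 3.72 and 1.99. They reached at most 3.72 CPM in any library, and their parental values were inside the range of the clones. No median was taken without them. GSTM4 was at 12.6 CPM in the parental library and at 33.5, 52.2 and 57.4 CPM in the clones (1.92), and MGST3 was higher at 1.44. MGST2 was higher at 1.47 but did not meet the criterion without the library labelled clone 5 (1.43) or without clone 6 (1.40). Reads of these related genes can be split between copies. Without the library labelled clone 5 the count of the list was 2, and without clone 6 it was 3. Without clone 1, 6 were higher and 1 was lower.

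Of 20 genes of the thioredoxin and peroxiredoxin system other than TXN, TXNRD1, SRXN1 and PRDX1, 1 (5.0%) was lower by the criterion and 0 were higher. Of all genes, 5.34% were lower and 4.24% higher, so the lower share of this list was near that of all genes. The lower gene was SESN2, a stress-induced sestrin, at 158.6 CPM in the parental library and 25.5 to 37.8 CPM in the clones (-2.31). TXNIP, which binds and inhibits thioredoxin, was at 605.7 CPM in the parental library and at 203.2, 295.8 and 495.3 CPM in the clones (-0.87, edgeR adjusted p = 0.570). TXNL1 differed by -0.37, PRDX2 by 0.93, MSRB1 by 0.81 and MSRB2 by 0.61, none past the criterion.

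Of the 18 tested genes that supply NADPH, 3 (16.7%) were lower by the criterion and 2 (11.1%) higher (all genes 5.34% and 4.24%). MTHFD2, a mitochondrial folate enzyme, was at 517.6 CPM in the parental library and 76.8 to 125.4 CPM in the clones (-2.46). ME2 (-1.09), RPIA (-1.04) and IDH2 (1.51) met the criterion with all clones, but none of them did so without the library labelled clone 5 (-0.88, -0.92 and 1.42) or without clone 6 (-1.08, -1.02 and 1.36). NNT differed by 0.88 and met it only without clone 1 (1.05).

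Of 9 genes of superoxide and peroxide removal, 1 (11.1%) was lower by the criterion and 2 (22.2%) were higher (all genes 5.34% and 4.24%). SOD2, the mitochondrial superoxide dismutase, was at 2120 CPM in the parental library and at 279.2, 107.9 and 130.1 CPM in the clones (-3.62). Catalase (CAT) was at 52.3 CPM in the parental library and 107.8 to 148.5 CPM in the clones (1.22). The secreted SOD3 was higher at 2.13 but not by the criterion without the library labelled clone 5 (1.75) or without clone 6 (2.08), and SOD1 differed by 0.70 without meeting the criterion.

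Of 11 genes of heme, iron and quinone handling, 3 (27.3%) were lower by the criterion and 0 higher (all genes 5.34% and 4.24%). HMOX1, heme oxygenase, a classical target of NRF2 and BACH1, was at 299.4 CPM in the parental library and between 32 and 82.5 CPM in the clones (-2.52). FTH1, the ferritin heavy chain, was at 25935 CPM in the parental library and at 2507, 2443 and 3507 CPM in the clones (-3.20). FTL, the ferritin light chain, overlapped, at 4053 CPM in the parental library and between 1755 and 4281 CPM in the clones (-0.52, edgeR adjusted p = 0.754). TFRC, the transferrin receptor, was lower at -1.28. BLVRA (0.87), HMOX2 (0.55) and CRYZ (0.86) did not meet the criterion.

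**Figure D5:**
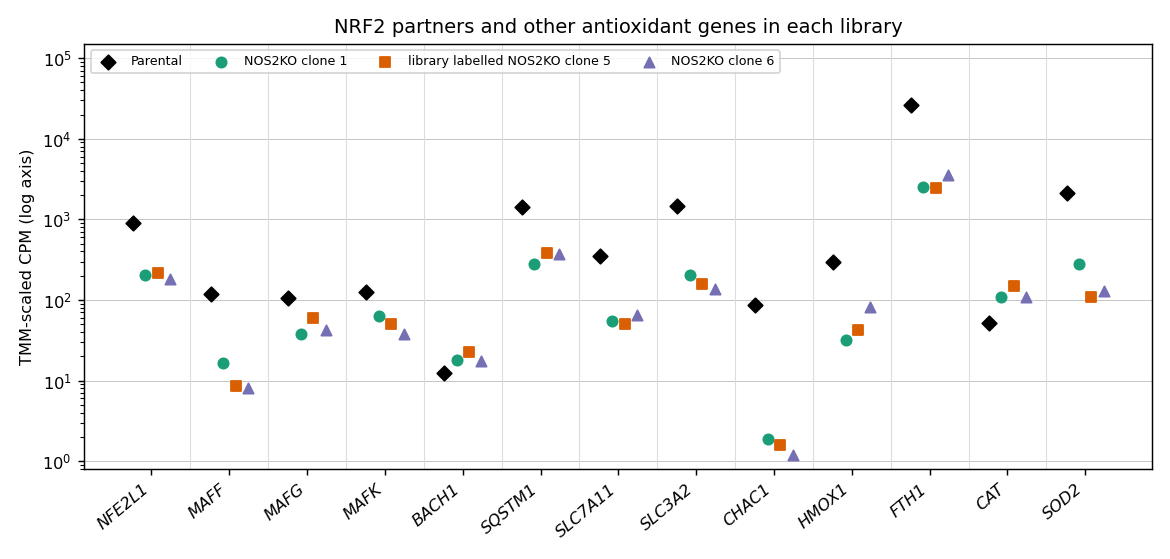
TMM-scaled CPM on a log axis of selected genes of the NRF2 pathway and of antioxidant defence in the 4 libraries, 1 point per library. The genes were picked by hand and do not represent the lists. Of the 142 genes tested in the 9 lists, 65 had a log2 fold change below 0 and 77 above 0. The parental diamond lies above all clones for NFE2L1, the MAF genes, SQSTM1, SLC7A11, SLC3A2, CHAC1, HMOX1, FTH1 and SOD2, and below all clones for BACH1 and CAT.

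Of 23 detoxifying reductases and conjugating genes, 0 were lower by the criterion and 4 (17.4%) were higher (all genes 5.34% and 4.24%). AKR7A2 was at 23.2 CPM in the parental library and 54.5 to 96.9 CPM in the clones (1.65). AKR1B10 was at 0.553 CPM in the parental library and at 1.64, 10.2 and 10.8 CPM in the clones (3.77), and did not meet the criterion without the library labelled clone 5 (3.52) or without clone 6 (3.42). CBR1 and CBR3, named after their values were seen, were the other two, at 1.09 and 1.58, and without clone 6 the count of the list was 1. The differences of ABCG2 (1.70), AKR1C2 (-1.52), ABCC3 (-0.87) and UGDH (-0.72) did not meet the criterion with all clones, but AKR1C2 did without clone 6 (-2.45), the 1 lower gene of the list in that fit, and ABCG2 did without the library labelled clone 5 (2.06). Of 9 tested NADPH oxidase genes, 2 (22.2%) were lower by the criterion and 0 higher (all genes 5.34% and 4.24%). These oxidases make superoxide or hydrogen peroxide. Without clone 1 the counts were 1 lower and 1 higher, and without clone 6 there were 0 lower.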

How the data were processed

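Libraries of 1 parental SUM159 culture and of NOS2KO clones 1, 5 and 6 were used. The values deposited by the authors are raw counts of reads on each gene. Their processing notes name bcl2fastq, Trimmomatic 0.36, STAR 2.5.2b, featureCounts of Subread 1.5.2, DESeq2 and GRCh38. The annotation release and strand setting are not given in the sources used here. Symbols came from GENCODE 29 and matched 56898 of 57500 genes. Promoters came from RefSeq on GRCh38.p14.

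Counts were fitted in R 4.3.3 with edgeR 4.0.16 (filterByExpr, TMM, estimateDisp, glmQLFit, glmQLFTest), with Benjamini-Hochberg adjustment over 22511 genes. Only the clones gave the spread (2 residual and 2.75 prior degrees of freedom). Clopper-Pearson 95% intervals cover counting error only. The fits were tested on simulated data. Alternatives were other scalings, filters and edgeR settings, DESeq2 1.42.0 and each clone left out. Other steps used Python 3.11.15.

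The 10 genes and the lists were chosen with earlier results of these data known. Named in each list were at most 3 lower and 3 higher genes with the largest log2 fold change, of those reaching 10 CPM and moving in 1 direction in all clones. SLC7A11, FTH1, FTL, HMOX1, TXNIP and BACH1 were named whatever their values, and the 3 nearest profiles were named for the 2 genes of widest range. Some genes of the lists are counted but not reported by name here.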

Additional observations from a re-analysis of the deposited data

How the results depend on the processing

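The direction of all 10 genes held under every alternative tried (3 other scalings, 2 other filters, 2 other edgeR settings, DESeq2 and each clone left out), and no clone's ratio to the parental library changed sign under another scaling. The number of the 10 genes with an adjusted p under 0.05 was 0 with edgeR and 2 with DESeq2, and the cause was not tested. The genes of the 9 lists that were higher by the criterion, 15 in all, came to between 6 and 20 with a clone left out. Upper quartile scaling moved the median log2 fold change of all genes by 0.10 and gave 1002 lower and 1124 higher genes by the criterion, where TMM gave 1202 and 955. With DESeq2's p the criterion gave 1144 and 1591. DESeq2 gave 1095 genes with an adjusted p under 0.05, the bias-adjusted edgeR method 5 and the fit without a filter 6, against 1. With a clone left out, a single residual degree of freedom remained and 0 genes had an adjusted p under 0.05. Without clone 1, NQO1 was also above the parental value in both remaining clones. With 1 parental library, the spread of parental cells was not measured. No paired analysis was possible, because the labels give no pairing of a clone with the 1 parental library.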
